A study of Homo sapiens with 15 samples.

Results

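The mRNAs of 9 genes that read acetylated chromatin or govern the elongation kinase P-TEFb were followed in K562 cells exposed to martinostat. The genes were chosen by name and role, with earlier results of these data known. All 9 were found among the 60649 genes of the count table. They are the BET readers BRD2 and BRD3, the kinase CDK9 with its cyclin partners CCNT1 and CCNT2, the P-TEFb inhibitors HEXIM1 and HEXIM2, and the 7SK-binding proteins LARP7 and MEPCE.

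BET proteins bind acetylated lysines of histone tails through paired bromodomains and bring transcription regulators to chromatin. P-TEFb, the complex of CDK9 with cyclin T1 or T2, phosphorylates RNA polymerase II and its pausing factors and so lets paused polymerase move into productive elongation. Much of the cell's P-TEFb is held inactive in a ribonucleoprotein built on the 7SK RNA, where MEPCE caps the RNA, LARP7 shields its end and HEXIM1 or HEXIM2 blocks the kinase.

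K562 is an established cell line from a chronic myeloid leukaemia with erythroid features, and martinostat is an inhibitor of histone deacetylases, the enzymes that remove the acetyl groups that BET proteins bind. Poly(A) RNA was sequenced from untreated K562 cells and from K562 cells exposed to 0.15, 0.25, 0.5 or 1 µM martinostat for 24 h, with 3 libraries in each of the 5 groups and 15 in all. The labels give the libraries as biological replicates, call the controls untreated and name no other agent, and all groups are of the same cell line. The comparisons ask how the members' mRNAs stood at each dose against untreated cells and between neighbouring doses.

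The libraries held 23755510 to 32805574 counts. Levels are given as CPM, counts relative to a library size scaled by TMM (a trimmed mean of log ratios between libraries). A gene was called where edgeR's quasi-likelihood p, adjusted by Benjamini-Hochberg over 23711 tested genes, was under 0.05. The fewest counts of a member in a library were 32, for HEXIM2, and each of the other members had at least 350 in every library. The third libraries at 0.25 and 0.5 µM stood apart from the rest on the third principal component, at 70.1 and 75.4 against 16.0 or less. Within their groups BRD3, MEPCE and CDK9 were lowest in both of them, and CCNT1, CCNT2 and LARP7 were highest in both. Results of BRD3 and MEPCE against untreated cells are given with and without them, and those of the other members mostly with them. All 8 erythroid markers of K562 were detected, with a summed level of 2332 to 2633 CPM in untreated cells that was 753 to 903 CPM at 1 µM, where 6 were lower and 1 was higher. Of 8 markers of other lineages, MS4A1 was at 0 in untreated cells and at 0.15 and 0.25 µM, and the summed level was 148 to 164 CPM in untreated cells and 332 to 524 CPM at 1 µM, where 5 of 7 tested were higher and 1 was lower. Most of that sum was EPCAM in untreated cells (141 CPM) and COL1A1 at 1 µM (398 CPM). The part of these shifts in the members' values was not tested, and fewer cells of a kind and less RNA per cell cannot be told apart in bulk samples.

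At every dose the kinase CDK9 and both HEXIM genes were higher than in untreated cells, and CCNT2 and MEPCE were lower. LARP7 was lower from 0.25 µM on, CCNT1 was lower at 0.15 and 0.25 µM alone, and BRD2 and BRD3 were not called at any dose. At 0.15 µM 6 of 9 members were called, 3 higher and 3 lower, where 51.2% of all tested genes were called, 31.9% higher and 19.4% lower. At 0.25 µM 7 members were called, 3 higher and 4 lower, beside 62.3% of all genes, 37.4% higher and 24.8% lower. At 0.5 µM there were 6, 3 higher and 3 lower, beside 66.9% of all genes, 39.4% higher and 27.6% lower. At 1 µM there were again 6, 3 higher and 3 lower, beside 66.2% of all genes, 38.8% higher and 27.5% lower. The members' share of calls thus lay near that of all genes, so the counts say little about the members and the values of each gene carry the description. When any difference among the 5 groups was tested, 8 members were called beside 73.6% of all genes, and BRD2 was the exception with an edgeR adjusted p of 0.0842. Fits of the compared libraries only gave no such test. BRD2 was called in that test in 7 of the other alternatives, among them RLE scaling (edgeR adjusted p = 0.0215), DESeq2 and library totals. Another was the fit without the libraries that stood apart (edgeR adjusted p = 0.0270). CCNT1, at an edgeR adjusted p of 0.0389, lost its call there in 14 alternatives. These were the replicate block (0.0573), library totals, both limma fits and 10 of 15 fits that left out 1 library (0.0517 to 0.0887 in edgeR). The libraries left out were each untreated one, replicates 1 and 3 at 0.15 µM, 1 and 2 at 0.25 µM, 2 at 0.5 µM, and 1 and 3 at 1 µM. BRD3 lost its call without replicate 3 at 0.15 µM (edgeR adjusted p = 0.0641). LARP7 lost its call with library totals, TMM over genes of at least 10 CPM, 10 counts in every library and both limma fits. The 4 comparisons with untreated cells share the same 3 control libraries.

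Most tested genes leaned upward in treated cells on this scale, but the lean was small among genes counted in every library. Against untreated cells the middle gene of those tested had a log2 fold change of 0.28, 0.32, 0.34 and 0.32 at the 4 rising doses, and the median member -0.19, -0.38, -0.10 and 0.04. Among the 14096 genes with at least 10 counts in every library, as all members had, the median gene stood at 0.04, 0.05, 0.07 and 0.05. At 1 µM 4998 of these genes were called higher and 4692 lower. Scaled by library totals alone, the median gene stood at 0.64, 0.85, 0.72 and 0.67. The share of calls that were higher moved with it. At 0.15 µM the calls went from 7557 higher and 4591 lower to 9582 and 2118, at 0.25 µM from 8873 and 5888 to 11697 and 3067, at 0.5 µM from 9336 and 6536 to 11097 and 4713, and at 1 µM from 9193 and 6514 to 10808 and 4777. With TMM computed over genes of at least 10 CPM there were 9078 higher and 2891 lower calls at 0.15 µM, 11183 against 3673 at 0.25 µM, 11393 against 4630 at 0.5 µM and 11102 against 4738 at 1 µM. Under library totals 4 members were higher and 1 was lower at 0.15 µM, 3 against 1 at 0.25 µM, 4 against 2 at 0.5 µM, and 5 against 3 at 1 µM, where BRD2 and BRD3 were the added ones.

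**Figure D1:**
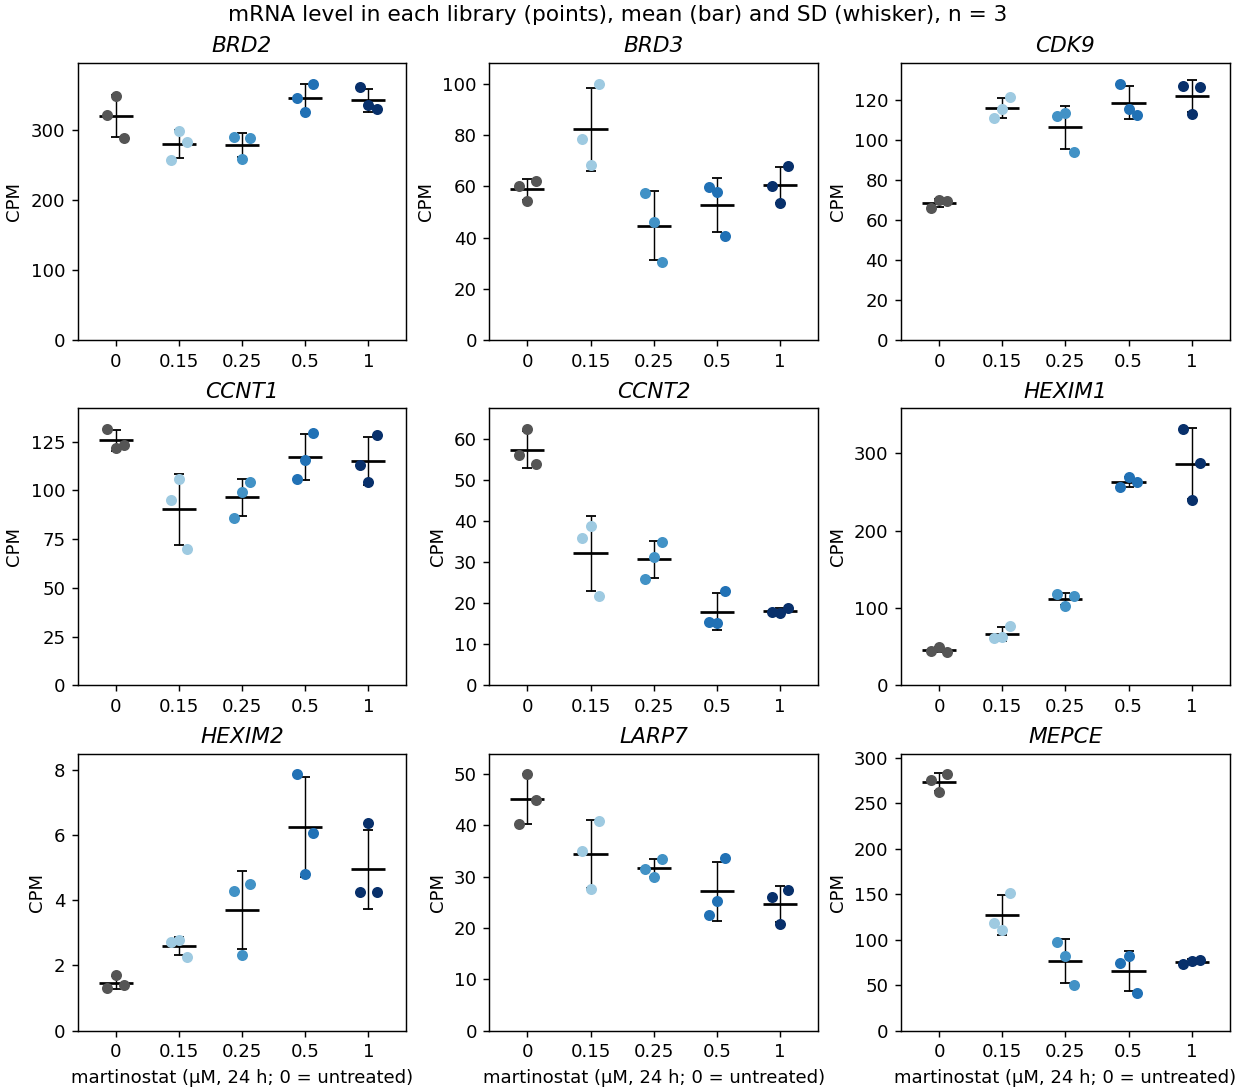
Level of each member in CPM (y axes, linear from 0, each panel with its own scale) in the 15 libraries by martinostat dose in µM (x axes); points are libraries, bars are means and whiskers SD, n = 3. HEXIM1 spans 43.6 to 49.8 CPM without drug and 240.1 to 331 CPM at 1 µM, while MEPCE spans 262 to 282 CPM without drug and at or under 152 CPM in every treated library.

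Neither BET reader was called against untreated cells at any dose. BRD2 (ENSG00000204256, chr6:32968594-32981505, plus strand, hg38) is a widely expressed BET protein that binds acetylated histones at cell cycle genes, among others. Its level was 321, 348 and 288 CPM in the untreated libraries, 257, 298 and 283 CPM at 0.15 µM, and 289, 258 and 288 CPM at 0.25 µM. At 0.5 µM it was 345, 325 and 366 CPM and at 1 µM 360.3, 335 and 330.0 CPM. The untreated range overlapped that of every dose, while all 3 libraries at 0.5 µM and all 3 at 1 µM lay above those at 0.15 and at 0.25 µM. Its log2 fold changes were -0.19 ± 0.13 (SE) at 0.15 µM and 0.10 ± 0.13 at 1 µM, with a 95% interval of -0.18 to 0.37 at the latter. BRD2 was not called under TMM scaling of all tested genes, but it was called higher at 1 µM with library totals (0.45), with TMM over genes of at least 10 CPM (0.48), with a filter of 10 counts in every library (0.37) and with limma on the FPKM (0.43 and 0.45). The same 5 settings called it at 0.5 µM, so whether BRD2 rose at the upper doses depends on the scaling and the filter.

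BRD3 (ENSG00000169925, chr9:134030305-134068535, minus strand), a BET protein known to bind acetylated GATA1 in erythroid cells, had its highest level at the lowest dose. It stood at 60.2, 54.3 and 62.0 CPM in untreated cells and at 78.3, 68.1 and 100.1 CPM at 0.15 µM, with no overlap. At 0.25 µM it was 57.2, 46.1 and 30.5 CPM, at 0.5 µM 59.8, 57.7 and 40.5 CPM, and at 1 µM 60.3, 53.6 and 67.8 CPM. The lowest library at 0.25 and at 0.5 µM was the one that stood apart. The change of 0.48 ± 0.20 (SE) at 0.15 µM missed the threshold (edgeR adjusted p = 0.0556), and it was called in 12 of 26 alternatives. Without the libraries that stood apart it was 0.49 with an adjusted p of 0.00382, and without replicate 2 at 0.15 µM it was 0.60. The step from 0.15 to 0.25 µM was called lower at -0.88 ± 0.20 (edgeR adjusted p = 0.00860). It was -0.65 without the libraries that stood apart, still called, and -0.68 and no longer called without replicate 3 at 0.15 µM. Without replicate 1 at 0.25 µM the change at 0.25 µM against untreated cells was called lower at -0.62, where it had been -0.40. It was -0.19 without replicate 3 of that dose and -0.16 without both libraries that stood apart, not called in either fit. At 0.5 µM the value of -0.16 became 0.037 without both of them, not called. BRD3OS, a gene on the opposite strand that shares 18.6% of the BRD3 exon bases, rose from 11.7 ± 1.05 to 27.4 ± 2.26 CPM at 1 µM (SD, n = 3), and its part in the BRD3 counts was not tested.

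CDK9 (ENSG00000136807, chr9:127785679-127790792, plus strand), the catalytic subunit of P-TEFb, rose already at the lowest dose. Its values were 66.0, 69.6 and 69.3 CPM in untreated cells and 111, 115 and 121 CPM at 0.15 µM. At 0.25 µM they were 112, 113 and 93.6 CPM, at 0.5 µM 128, 115 and 112 CPM, and at 1 µM 127, 113 and 126 CPM. All 12 treated libraries lay above all 3 untreated ones. The mean at 1 µM was 1.78 times the untreated mean, a log2 fold change of 0.84 ± 0.12 (SE, edgeR adjusted p = 8.57e-06), and at 0.15 µM the change was 0.76 ± 0.12. No step between doses was called for CDK9, and the difference of 1 from 0.15 µM was 0.07 with a 95% interval of -0.18 to 0.33. Its call against untreated cells held in all 26 alternatives at each dose.

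The cyclin partners parted. CCNT1 (ENSG00000129315, chr12:48688458-48716998, minus strand), the main cyclin of P-TEFb, measured 132, 122 and 123 CPM in untreated cells. It was 95.01, 106 and 70.1 CPM at 0.15 µM, 86.0, 99.3 and 104 CPM at 0.25 µM, 106, 116 and 129 CPM at 0.5 µM, and 113, 104 and 129 CPM at 1 µM. The 2 lower doses lay wholly under the untreated range and the 2 upper doses overlapped it. The change was -0.48 ± 0.15 (SE) at 0.15 µM (edgeR adjusted p = 0.0138), -0.38 ± 0.15 at 0.25 µM (edgeR adjusted p = 0.0370) and -0.12 ± 0.15 at 1 µM, which was not called. The first call ended in 6 of 26 alternatives and the other in 14. At 0.15 µM it ended, among others, without replicate 3 at that dose (-0.33) and with library totals (-0.11). At 0.25 µM leaving out any 1 untreated library ended the call (-0.35 to -0.40), as did leaving out replicate 1 (-0.30) or replicate 2 (-0.40) of that dose, and the sign turned with library totals (0.15). CCNT1 shares no exon base with another gene of the annotation.

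CCNT2 (ENSG00000082258, chr2:134918235-134959342, plus strand), the alternative P-TEFb cyclin, fell in 2 stages. It measured 56.0, 62.5 and 53.8 CPM in the untreated libraries, 35.9, 38.8 and 21.8 CPM at 0.15 µM, and 25.9, 31.2 and 35.0 CPM at 0.25 µM. At 0.5 µM it was 15.5, 15.1 and 23.1 CPM and at 1 µM 18.0, 17.7 and 18.9 CPM. All treated libraries lay below all untreated ones, and those at 0.5 µM also lay below those at 0.25 µM. The fall was -0.84 ± 0.20 (SE) at 0.15 µM and -1.66 ± 0.20 at 1 µM (edgeR adjusted p = 8.30e-07), where the mean was 0.317 of the untreated mean. The step from 0.25 to 0.5 µM was called at -0.78 ± 0.20 (edgeR adjusted p = 0.00618). The calls at 0.5 and 1 µM held in all 26 alternatives, while those at 0.15 and 0.25 µM ended with library totals (-0.47 and -0.37) and with both limma fits (-0.24 and -0.19 on the log2(FPKM + 1) scale), and that at 0.25 µM also with TMM over genes of at least 10 CPM (-0.48).

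HEXIM1 showed the largest rise of the 9 members at 0.5 and 1 µM. HEXIM1 (ENSG00000186834, chr17:45148475-45152099, plus strand), whose expression is widely used as a marker of response to BET inhibitors, is a single-exon gene, and its neighbour and relative HEXIM2 (ENSG00000168517, chr17:45160700-45170040) starts 8601 bases beyond its end on the same strand. The 250 bases before the RefSeq start of HEXIM1 (chr17:45148225-45148474, GRCh38.p14, plus strand) and before the second of 2 RefSeq starts of HEXIM2 (chr17:45161625-45161874, GRCh38.p14, plus strand) are shown because both genes rose. Capitals mark 3 motifs searched on both strands. They are the TATA motif TATATAA, the CCAAT box, which reads ATTGG where it lies on the other strand, and the GC box GGGCGG.
HEXIM1: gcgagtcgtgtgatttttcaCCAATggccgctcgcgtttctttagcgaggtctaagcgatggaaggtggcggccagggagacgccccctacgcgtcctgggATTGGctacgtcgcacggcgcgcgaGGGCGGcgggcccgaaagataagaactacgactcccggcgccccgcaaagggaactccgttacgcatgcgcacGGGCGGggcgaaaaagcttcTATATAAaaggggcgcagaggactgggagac
HEXIM2: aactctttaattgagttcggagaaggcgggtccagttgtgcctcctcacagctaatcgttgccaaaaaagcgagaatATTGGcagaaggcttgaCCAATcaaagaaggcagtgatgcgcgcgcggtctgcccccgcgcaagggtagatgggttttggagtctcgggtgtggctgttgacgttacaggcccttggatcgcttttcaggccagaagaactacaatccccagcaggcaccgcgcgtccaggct
The HEXIM1 stretch held the TATA motif at 31 to 25 bases before the start, the CCAAT box once on each strand, and the GC box at 2 places, and its GC content was 62.4%. The HEXIM2 stretch held the CCAAT box once on each strand and neither of the others, with a GC content of 55.2%. The window before the first HEXIM2 start, not printed, held none of the 3 motifs and had a GC content of 36%. Which start these cells use was not tested. The TATA motif occurred in 2.42% of 35116 RefSeq promoter windows of this length and in 2 of the 17 windows of the members, that of HEXIM1 and that of the first start of MEPCE. The CCAAT box occurred in 32.0% of all windows and 6 of 17 members' windows, and the GC box in 42.6% of all and 12 of 17. The 3 motifs did not overlap one another in the 2 printed stretches, and a match describes letters and is no measured binding site.

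The HEXIM1 level was 44.8, 49.8 and 43.6 CPM in the untreated libraries, 60.6, 62.1 and 76.9 CPM at 0.15 µM, and 118, 102 and 115 CPM at 0.25 µM. At 0.5 µM it was 256, 269 and 263 CPM and at 1 µM 331, 240.1 and 287 CPM. The groups up to 0.5 µM did not overlap one another, and those at 0.5 and 1 µM did. The log2 fold change against untreated cells went from 0.53 ± 0.14 (SE, edgeR adjusted p = 0.00473) at 0.15 µM to 1.28 ± 0.15, 2.51 ± 0.15 and 2.64 ± 0.15 (edgeR adjusted p = 2.82e-11) at the doses above it. The mean at 1 µM was thus 6.22 times that of untreated cells. The steps from 0.15 to 0.25 µM (0.75 ± 0.14) and from 0.25 to 0.5 µM (1.23 ± 0.14) were both called, with edgeR adjusted p of 0.00240 and 2.90e-06. The last step, 0.12 with a 95% interval of -0.17 to 0.42, was not called. Every call of HEXIM1 against untreated cells held in all 26 alternatives, over which the change at 1 µM ran from 2.52 to 3.02.

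HEXIM2 followed the direction of HEXIM1 at a far lower count. Its level was 1.31, 1.70 and 1.41 CPM in the untreated libraries, 2.71, 2.79 and 2.27 CPM at 0.15 µM, and 4.27, 2.33 and 4.51 CPM at 0.25 µM. At 0.5 µM it was 7.86, 4.81 and 6.06 CPM and at 1 µM 4.26, 6.36 and 4.25 CPM. Every treated library lay above the untreated range. The change was 0.81 ± 0.30 (SE, edgeR adjusted p = 0.0299) at 0.15 µM, 2.08 ± 0.30 at 0.5 µM and 1.75 ± 0.30 at 1 µM. Its call at 0.15 µM ended when untreated replicate 1 (0.73) or 3 (0.78), or replicate 1 (0.78) or 2 (0.75) at 0.15 µM, was left out, and with limma on log2(FPKM + 1) (0.19), and the calls at the other 3 doses held in all 26 alternatives. The step from 0.25 to 0.5 µM was called at 0.75 ± 0.28 (edgeR adjusted p = 0.0476). With the replicate number as a block it was 0.75 and not called (edgeR adjusted p = 0.0601). Leaving out 1 library ended that call in 12 of 15 cases, at 0.51 to 0.86, the exceptions being replicate 3 at 0.25 µM, replicate 2 at 0.5 µM and replicate 2 at 1 µM. Of the HEXIM2 exon bases, 79.3% lie under 2 genes of the opposite strand, HEXIM2-AS1 and ENSG00000267288, which had 112 and 67 counts over all 15 libraries.

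**Figure D2:**
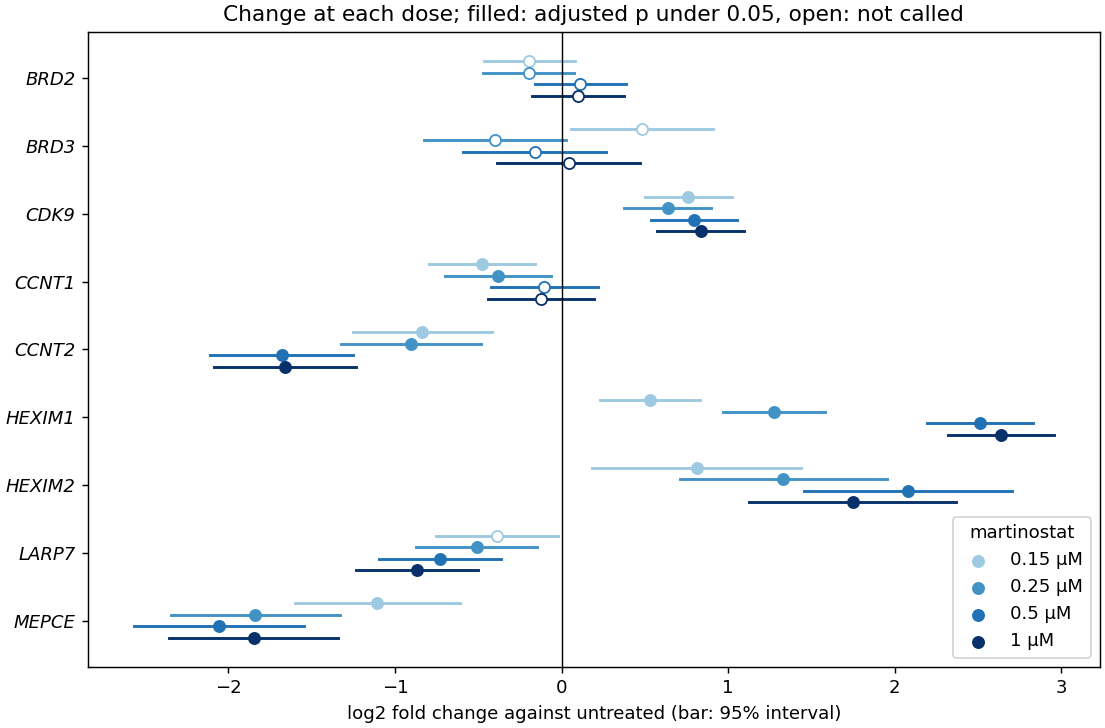
Log2 fold change of each member against untreated cells (x axis) at 4 martinostat doses, from light to dark blue; bars are 95% intervals, filled points were called at an adjusted p under 0.05 and open points were not. HEXIM1 steps from 0.53 to 2.64, CDK9 stays between 0.64 and 0.84, and CCNT2 and MEPCE lie left of 0 at every dose.

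The mRNAs of the 7SK-binding proteins were lower, that of MEPCE at every dose and that of LARP7 from 0.25 µM on. MEPCE (ENSG00000146834, chr7:100428322-100434126, plus strand), the capping enzyme of 7SK RNA, was at 275, 262 and 282 CPM in untreated cells and at 119, 111 and 152 CPM at 0.15 µM. At 0.25 µM it was 97.4, 81.9 and 49.8 CPM, at 0.5 µM 74.6, 81.7 and 41.0 CPM, and at 1 µM 72.9, 77.1 and 78.0 CPM. All 12 treated libraries lay below the untreated range, and the lowest at 0.25 and at 0.5 µM were the libraries that stood apart. The log2 fold changes were -1.11 ± 0.24 (SE, edgeR adjusted p = 7.81e-04), -1.84 ± 0.24, -2.06 ± 0.24 and -1.85 ± 0.24 (edgeR adjusted p = 2.53e-06) by rising dose. Without the libraries that stood apart they were -1.10, -1.58, -1.77 and -1.80, and each call against untreated cells held in all 26 alternatives. The step from 0.15 to 0.25 µM, -0.73 ± 0.23, lay just inside the threshold (edgeR adjusted p = 0.0495) and ended in 18 of 26 alternatives, among them each fit without an untreated or 1 µM library (-0.73), each without a 0.15 µM library (-0.55 to -0.82), and those without replicate 2 (-0.79) or 3 (-0.50) at 0.25 µM. Without both libraries that stood apart it was -0.48 and still called. In GENCODE v44 MEPCE shares 61.3% of its exon bases with ENSG00000289690, a gene of the same strand. That gene had no row in the count table, and its part in the MEPCE counts was not tested. MEPCE shares 6.02% with ZCWPW1 of the opposite strand, which was 2.48 ± 0.995 CPM in untreated cells (SD, n = 3).

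The stretch around the TATA motif before MEPCE is shown beside that of HEXIM1 because these 2 members held the motif at nearly the same distance from their starts and their mRNAs changed in opposite directions. Both stretches run from 40 to 11 bases before a RefSeq start on the plus strand of GRCh38.p14, the first of 3 starts for MEPCE. The windows before the other MEPCE starts held no TATATAA, and which start these cells use was not tested. The stretches lie at chr17:45148435-45148464 for HEXIM1 and chr7:100428750-100428779 for MEPCE, and capitals mark TATATAA alone.
HEXIM1: aaaagcttcTATATAAaaggggcgcagagg
MEPCE: cactcgctggTATATAAgtcggcgtggcgc

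LARP7 (ENSG00000174720, chr4:112637077-112657696, plus strand), which binds the 3′ end of 7SK RNA, was called lower from 0.25 µM on. It was 40.2, 49.9 and 45.0 CPM in the untreated libraries, 34.9, 27.6 and 40.8 CPM at 0.15 µM, and 31.5, 30.0 and 33.5 CPM at 0.25 µM. At 0.5 µM it was 22.4, 25.3 and 33.6 CPM and at 1 µM 25.98, 20.7 and 27.4 CPM. The 0.15 µM range overlapped the untreated one, and the 3 upper doses lay below it. The changes were -0.39 ± 0.17 (SE, not called), -0.51 ± 0.17, -0.73 ± 0.17 and -0.87 ± 0.18 (edgeR adjusted p = 2.52e-04) by rising dose. The call at 0.25 µM ended without untreated replicate 2 (-0.43) or replicate 2 at 0.25 µM (-0.47), and with library totals the value was 0.024. The call at 0.5 µM ended with library totals (-0.32), with TMM over genes of at least 10 CPM (-0.30) and with both limma fits. At 0.15 µM a call was gained in 7 alternatives, among them those without replicate 3 at that dose (-0.53), without replicate 3 at 0.5 µM (-0.39) and without both libraries that stood apart (-0.38). The call at 1 µM ended with limma on the FPKM alone, at -0.31 and -0.49. The 7SK RNA itself, RN7SK, had 0 counts in all 15 libraries, which were poly(A)-selected, so the RNA that these proteins bind was not measured.

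Between neighbouring doses members were called up to 0.5 µM and none beyond it. From 0.15 to 0.25 µM 3 members were called, HEXIM1 higher and BRD3 and MEPCE lower, beside 12.3% of all genes, 4.96% higher and 7.32% lower. From 0.25 to 0.5 µM 3 were called, HEXIM1 and HEXIM2 higher and CCNT2 lower, beside 30.4% of all genes, 14.4% higher and 16% lower. From 0.5 to 1 µM edgeR called 0 members and 0% of all genes. There 372 of 23711 tested genes had an unadjusted edgeR p under 0.05. That is less than the share of 0.05 that unchanged genes would give by chance. DESeq2 called 0 genes, and limma on either FPKM scale called 1 gene, no member. The lack of calls does not show that the 2 doses were alike. From 0.15 to 1 µM 5 members were called, beside 44.5% of all genes, 21.5% higher and 23.1% lower. HEXIM1 (2.11 ± 0.15) and HEXIM2 (0.94 ± 0.28) were higher in that comparison, and CCNT2 (-0.82 ± 0.20), LARP7 (-0.48 ± 0.17) and MEPCE (-0.74 ± 0.24) were lower. The number called was 3 when replicate 3 at 0.15 µM, or replicate 1 or 2 at 1 µM, was left out, and 8 without the libraries that stood apart, where BRD2 (0.33) and CCNT1 (0.39) were also called higher and BRD3 (-0.41) lower. The calls that ended were those of LARP7 (-0.30, -0.52 and -0.37 in these 3 fits), of MEPCE without replicate 3 at 0.15 µM (-0.55) or replicate 1 at 1 µM (-0.71), and of HEXIM2 without replicate 2 at 1 µM (0.72). LARP7 also lost its call without replicate 1 at 0.15 µM (-0.47). CCNT1 gained one without replicate 2 at 0.15 µM (0.48) or replicate 3 at 0.5 µM (0.35), and BRD3 without replicate 3 at 0.25 or at 0.5 µM (-0.44).

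To compare levels between genes, CPM were divided by the kb of exon of each gene. In untreated cells MEPCE led at 81.1 ± 2.98 CPM per kb (SD, n = 3), followed by BRD2 (35.5 ± 3.32), CDK9 (22.7 ± 0.674), CCNT1 (17.04 ± 0.705), HEXIM1 (12.7 ± 0.904) and BRD3 (8.55 ± 0.585). CCNT2 (6.32 ± 0.494) and LARP7 (5.57 ± 0.599) overlapped, and HEXIM2 was last at 0.733 ± 0.101 CPM per kb. At 1 µM the order had changed at the top and the bottom. HEXIM1 led at 79.0 ± 12.6 CPM per kb, and CDK9 (40.6 ± 2.66) and BRD2 (37.99 ± 1.81) overlapped behind it. MEPCE followed at 22.5 ± 0.815, then CCNT1 at 15.6 ± 1.67 and BRD3 at 8.80 ± 1.03. LARP7 (3.05 ± 0.433) and HEXIM2 (2.47 ± 0.603) overlapped, and CCNT2 was last at 2.00 ± 0.0666 CPM per kb. The whole-gene CPM were also divided by the kb of exon bases that no other counted gene shares. On that length HEXIM2 was 3.55 ± 0.489 CPM per kb in untreated cells and 11.9 ± 2.92 at 1 µM. Its mean at 1 µM was then above that of LARP7 (3.64 ± 0.518) and close to that of BRD3 (10.8 ± 1.27). These values hold only if reads on shared bases went uncounted. That depends on the strand setting of the counting, which is not given. HEXIM2 was last in untreated cells on either length.

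A ratio of a pair of members within a library does not depend on how libraries are scaled. The ratio of HEXIM1 to CDK9, both per kb of exon, was 0.522 to 0.593 in the untreated libraries and 0.446 to 0.526 at 0.15 µM, which overlapped. It was 0.749 to 1.02 at 0.25 µM, 1.66 to 1.94 at 0.5 µM and 1.77 to 2.17 at 1 µM, each above the untreated range. On the scale of mRNA per kb, HEXIM1 thus went from below its kinase target to above it in every library of the 2 upper doses. The ratio of CCNT1 to CCNT2 was 2.40 to 2.89 in untreated cells, 3.26 to 3.96 at 0.15 µM, 3.67 to 4.09 at 0.25 µM, 6.90 to 9.44 at 0.5 µM and 7.25 to 8.396 at 1 µM. It lay above the untreated range at every dose. The ratio of CCNT1 to CDK9 was 0.713 to 0.813 in untreated cells and between 0.236 and 0.469 in all 12 treated libraries. BRD2 to BRD3 was 3.56 to 4.91 in untreated cells and lower, at 2.16 to 3.35, at 0.15 µM, and it overlapped the untreated range at the other doses. HEXIM1 to HEXIM2 overlapped the untreated range of 16.2 to 19.0 at 3 doses and lay above it, at 20.9 to 43.1, at 1 µM. No test was made on these ratios.

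**Figure D3:**
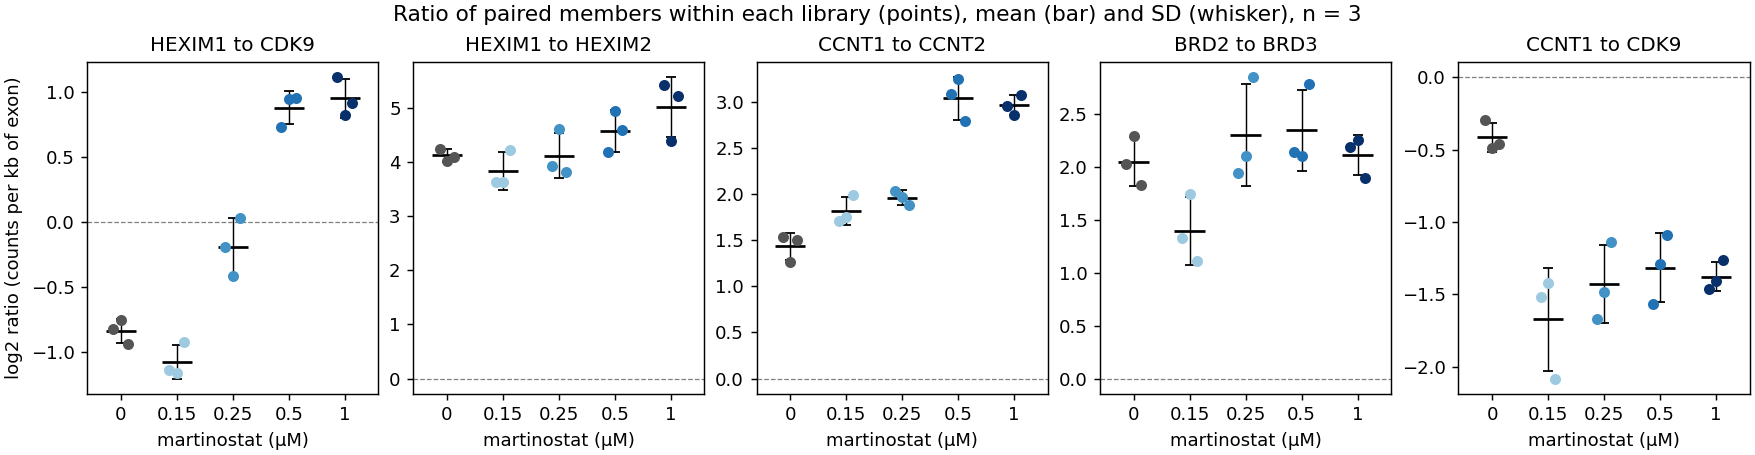
Log2 ratio of paired members, in counts per kb of exon, within each of the 15 libraries (y axes, each panel with its own scale; dashed line at 0 where both are equal) by martinostat dose in µM (x axes); points are libraries, bars means and whiskers SD, n = 3. HEXIM1 to CDK9 lies above 0 in all libraries at 0.5 and 1 µM and in 1 of 3 at 0.25 µM, and CCNT1 to CDK9 lies lower in all treated libraries.

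The wider elongation machinery was described by 6 lists of genes that work with or resemble the members. The counts of each list stand beside the shares of all tested genes. At 1 µM 38.8% of all tested genes were called higher and 27.5% lower. The shares were 31.9% and 19.4% at 0.15 µM, and 37.4% and 24.8% at 0.25 µM. In the super elongation complex, the scaffold and ELL proteins that carry P-TEFb to polymerase, 10 of 11 genes were tested at 1 µM, of which 3 were higher and 5 lower, with a median log2 fold change of -0.34. AFF4, its scaffold, rose from 95.3 ± 4.63 to 167 ± 12.5 CPM (0.81 ± 0.17, SE), and MLLT1, an acetyl-lysine reader of the complex, fell from 214 ± 7.28 to 131 ± 11.6 CPM (-0.70 ± 0.13). For the pausing factors DSIF and NELF, 4 of 6 genes were tested, with 1 higher, 1 lower and a median of -0.53. The untested ones, SUPT4H1 and NELFCD, had 53 and 35 counts over all 15 libraries, and the reason was not tested. SUPT5H, the large DSIF subunit that P-TEFb phosphorylates, rose by 0.47 ± 0.19 and NELFA fell by 1.00 ± 0.13 on the log2 scale. For the PAF1 complex, which travels with elongating polymerase, 1 of 6 was higher, 3 were lower and the median was -0.36. CTR9 rose from 129 ± 11.9 to 187 ± 22.8 CPM and LEO1 fell from 47.9 ± 6.25 to 16.2 ± 2.46 CPM.

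Kinases and cyclins that act at other steps of transcription were mostly lower, unlike CDK9. Of 9 such genes 1 was higher and 6 were lower at 1 µM, with a median of -0.62. CDK19, a Mediator kinase, rose from 14.4 ± 1.39 to 36.0 ± 4.97 CPM (1.32 ± 0.15), and CCNH, the cyclin of the TFIIH kinase, fell from 70.9 ± 5.601 to 20.1 ± 0.221 CPM (-1.82 ± 0.17). At 0.15 µM, where CDK9 had already risen, 7 of these 9 were lower and 1 was higher. With library totals the counts at 1 µM were 3 lower and 1 higher for these kinases and cyclins, and 1 lower and 3 higher for the super elongation complex.

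Factors that bind 7SK or release P-TEFb from it were mostly lower, as LARP7 and MEPCE were. Of 15 such genes 1 was higher and 11 were lower at 1 µM, with a median of -1.13, beside 38.8% and 27.5% of all genes. At 0.15 µM 1 was higher and 12 were lower, beside 31.9% and 19.4% of all genes. SYNCRIP, an hnRNP protein, fell from 194 ± 18.0 to 20.4 ± 2.36 CPM (-3.25 ± 0.16). PPP3CA, a catalytic subunit of calcineurin, rose from 32.1 ± 2.84 to 63.0 ± 7.83 CPM (0.97 ± 0.13). Many proteins of this list are general RNA-binding or splicing factors with roles beyond 7SK.

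Among 31 other bromodomain genes, none was higher and 20 were lower at 1 µM, with a median of -0.59, whereas neither BRD2 nor BRD3 was called. At 0.15 µM 3 were higher and 14 lower, while 3 and 18 were so at 0.25 µM. ZMYND11, a reader of histone methylation with a bromodomain, fell from 37.0 ± 4.37 to 3.03 ± 0.516 CPM (-3.61 ± 0.25), and BRD8, a subunit of an acetyltransferase complex, had the smallest fall among those called, from 81.6 ± 8.12 to 62.3 ± 6.58 CPM (-0.39 ± 0.15). All these list counts stand beside a median of 0.32 over all tested genes at 1 µM. The median was 0.05 over genes with at least 10 counts in every library. No list was tested as a whole.

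**Figure D4:**
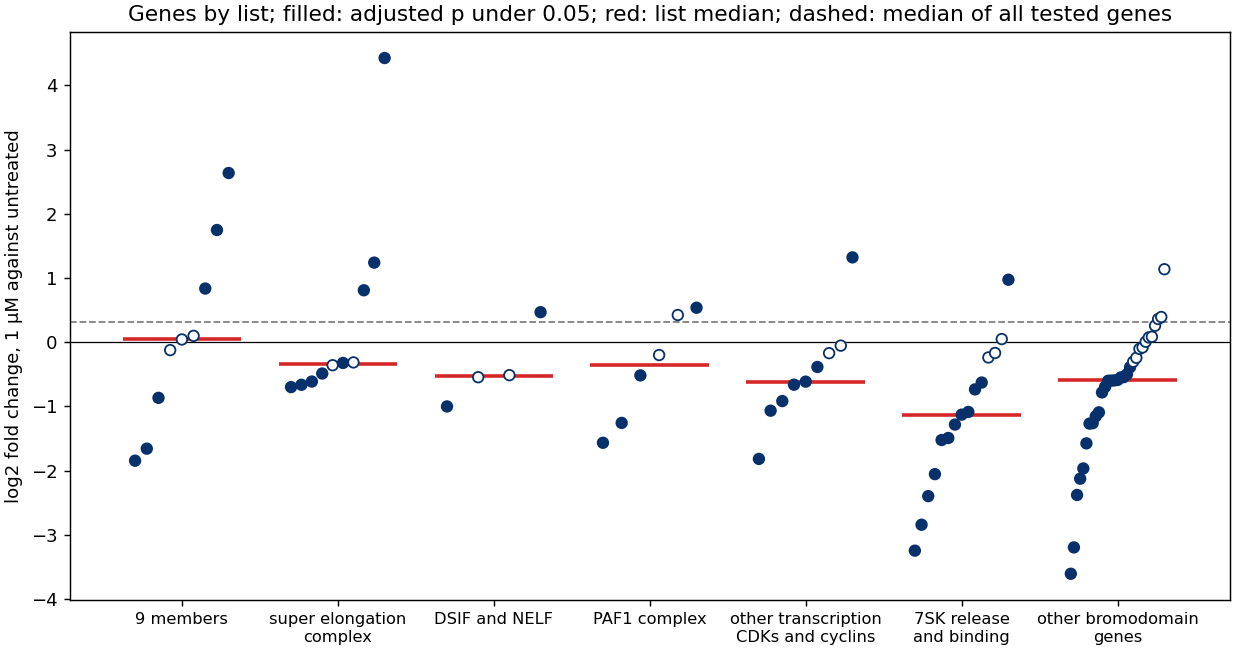
Log2 fold change at 1 µM against untreated cells (y axis) for the tested genes of the 9 members and 6 related lists (x axis); filled points were called at an adjusted p under 0.05, red lines are list medians and the dashed line is the median of all tested genes, 0.32. The median of each of the 6 related lists lies below the dashed line, from -0.34 for the super elongation complex to -1.13 for 7SK release and binding factors.

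The genes whose log2 CPM over the 15 libraries ran closest to a member were found by Pearson's r among 9625 protein-coding genes. For HEXIM1 they were TKTL1 (r = 0.992), TUFT1 (0.991) and H4C8 (0.989), which at 1 µM stood at 25.7 ± 4.01, 133 ± 10.9 and 232 ± 21.2 CPM against 0.445 ± 0.173, 5.84 ± 0.595 and 53.0 ± 6.33 CPM in untreated cells. For BRD2 they were ACADSB (0.905), FRA10AC1 (0.904) and GBA2 (0.901). These values describe likeness over 15 libraries that share 5 groups and carry no test.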

How the data were processed

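The authors selected poly(A) RNA and used a directional kit, and the submitters' processing notes name Trim Galore 0.6.10, HISAT2 2.2.1, SAMtools 1.21, featureCounts 1.5.3 and the build hg38. Whether reads were counted by strand is not given in the sources used here. The deposited count table held raw counts of 60649 genes. The deposited FPKM, which served in alternatives only, were divided by the authors by a length that for 7 of the 9 members equalled the genomic span, introns included, and so they were not used to compare genes. Symbols, positions and exons came from GENCODE v44 on hg38 (99.7% of identifiers matched), and promoter windows from RefSeq on GRCh38.p14 (all 9 members, 17 starts). The paper names an older GENCODE release for its counting, while levels per kb of exon rest on v44. The length behind the FPKM was 5329 bases for MEPCE and 20486 for LARP7, where the v44 spans are 5805 and 20620 bases.

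Counts were tested with edgeR 4.0.16 in R 4.3.3 (filterByExpr, TMM, robust quasi-likelihood fit of all 15 libraries with the group as the only term, Benjamini-Hochberg adjustment). SE is the log2 fold change over the root of F. The code was tested on simulated data. Alternatives were RLE scaling, library totals, TMM over genes of at least 10 CPM, no filter, at least 10 counts in every library, DESeq2 1.42.0, limma 3.58.1 on log2(FPKM + 1) and log2(FPKM + 0.1), fits of the compared libraries only, a replicate block, leaving out each library, and, chosen after seeing the data, leaving out the third libraries at 0.25 and 0.5 µM together and exon lengths free of other counted genes.

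Named genes were the members, from each list the called genes of at least 10 CPM with the highest and lowest change at 1 µM, the 3 protein-coding genes closest to HEXIM1, BRD2 and CDK9 (those for CDK9 are not reported here), and genes sharing exon bases with a member. The members and lists were chosen with earlier results of these data known. Same-numbered libraries at 0.25 and 0.5 µM deviated together (r = 0.266, 0.268 and 0.579), and no other of the 30 same-numbered pairs exceeded 0.1. Deviations were taken from the mean of 3 libraries, and the third libraries of both doses stood apart. The r of the other numbers can follow from that alone, so these values do not establish pairing, and the labels do not give it. No pair of libraries of the same group agreed within counting noise (chi-square per degree of freedom 6.15 or more). The p-values measure the spread between these libraries.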

Additional observations from a re-analysis of the deposited data

How the results depend on the processing

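Among the member values under 26 alternatives, 1723 kept their side of the threshold with no called value turning sign, 90 lost a call, 52 gained one and 7 called values turned sign. Of the 1723, 81 changed sign between values called in neither setting. Against untreated cells at 0.25 µM the members called fell from 7 to 4 with library totals, with TMM over genes of at least 10 CPM and with limma on either FPKM scale. The values that turned sign were those of CCNT1 at 0.25 µM (0.15 with library totals, 0.040 with TMM over genes of at least 10 CPM, 0.11 and 0.13 with limma on log2(FPKM + 1) and log2(FPKM + 0.1)) and of LARP7 at 0.25 µM (0.024 with library totals, 0.011 and 0.015 with the limma fits). Leaving out 1 library gave 1 to 3 members from 0.15 to 0.25 µM (1 without replicate 3 at 0.15 µM), 3 to 7 from 0.15 to 1 µM, 5 to 8 at 0.15 µM, 5 to 7 at 0.25 µM, 6 at 0.5 and 1 µM, 2 to 3 from 0.25 to 0.5 µM and 6 to 8 for any difference among groups, where limma on log2(FPKM + 1) gave 6. Without the third libraries at 0.25 and 0.5 µM 8 were called from 0.15 to 1 µM. The super elongation list had 4 called with library totals and with TMM over genes of at least 10 CPM against 8, and the list of other kinases and cyclins 4 with library totals against 7. With the replicate block 7 members were called at 0.15 and 0.25 µM and 2 from 0.25 to 0.5 µM, LARP7 at 0.15 µM was gained (-0.41), HEXIM2 was lost as stated, CCNT1 was lost among the 5 groups, where 7 members were called, and no other member call changed; same-numbered libraries correlated best in 19 of 60 checks. The untreated mean log2 ratios moved with the length used: HEXIM1 to CDK9 from -0.84 to -1.12 (longest transcript) and -0.70 (unshared exon bases), HEXIM1 to HEXIM2 from 4.12 to 3.73 and 2.07, and with the longest transcript CCNT1 to CCNT2 from 1.43 to 1.13, BRD2 to BRD3 from 2.05 to 2.33 and CCNT1 to CDK9 from -0.42 to -0.60. The causes were not tested. HEXIM2, with as few as 32 counts in a library, is the least precise member.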
